A study of Mus musculus with 4 samples.

Results

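The genes described here are those through which a cell senses microbial products and foreign or misplaced nucleic acid and passes the signal to the transcription factor NF-kB. They were chosen by name as 42 genes of this pathway and found on the array as the probe sets whose annotated gene symbol is a member. Of the 42 genes, 37 had a probe set of their own, with 80 probe sets in all, among 18193 genes with a probe set of their own on the array. The members comprise 14 receptors and sensors, 10 adaptors, 10 kinases with their regulatory subunit, and 8 NF-kB subunits and inhibitors. They were measured in unstimulated L929 cells, a fibroblast line from connective tissue of an adult C3H mouse, and in unstimulated NIH3T3 cells, a fibroblast line from Swiss mouse embryos, with 2 Affymetrix Mouse Genome 430 2.0 arrays per line. No treatment or engineered allele is given for either line. The series set L929, as cells that die readily by necrosis, against NIH3T3, as cells that die readily by apoptosis, and each way of dying is represented by a single line. Line and way of dying therefore cannot be told apart.

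Toll-like receptors (TLRs) recognise microbial lipids, proteins and nucleic acids at the cell surface or in endosomes, while cGAS and RIG-I detect DNA and RNA in the cytosol and NOD1 detects fragments of bacterial cell wall. Receptors recruit adaptors such as MyD88, TRIF and MAVS, which assemble kinases of the IRAK, TAK1, TBK1 and IKK families. The IKK complex marks the inhibitory IkB proteins for destruction, and the NF-kB dimers they held then enter the nucleus. Fibroblasts use these routes to release chemokines and cytokines. Some of the members, such as TAK1 and the IKK kinases, also stand downstream of TNF receptors, where they bear on survival and death.

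Each value below is a MAS5 signal, the array software's summary brightness of a probe set without a physical unit, after the arrays were brought to 1 trimmed mean. Signals of different probe sets are not compared, since each probe set has its own response. A gene entered the test where its signal on both arrays of either line exceeded 17.3, the 40th percentile of all scaled signals. It was called where limma's adjusted p lay below 0.05 and the lines differed more than 1.5-fold. The thresholds of 0.05 and 1.5-fold are the submitters', whose design text names no test. NIH3T3 replicate 2 was brighter than the other arrays as deposited, with a median signal of 38.3 against 23.5 to 24.0. After scaling, the L929 replicates correlated across the tested probe sets with r = 0.982 and the NIH3T3 replicates with r = 0.981, while arrays of different lines gave 0.835 to 0.843. Of 10 fibroblast markers, 9 exceeded the filter level on all 4 arrays. Among these Thy1 was barely above it in L929, at 18.0 and 30.0 against 2193 and 2253 in NIH3T3, and the exception was Dcn, at 19.0 and 2.78 in L929 against 1382 and 1572 in NIH3T3. Of the 10 macrophage and blood cell, 6 epithelial and 6 endothelial markers, 3, 2 and 0 exceeded it on all 4 arrays. Whether the replicates of a line came from separate cultures is not stated. The p-values therefore reflect only how far these samples spread, possibly for technical reasons, and the number of arrays limits the precision.

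L929 differed from NIH3T3 in few of the members. Of 34 tested members 2 were higher and 4 lower in L929, or 17.6% called, whereas 34.8% of all 12676 genes tested were called, 17.3% higher and 17.6% lower. The 2 higher members were Myd88, the adaptor shared by most TLRs and the interleukin-1 receptor, and Nfkbia, which encodes the NF-kB inhibitor IkB-alpha. The 4 lower members were Cd14, a co-receptor that hands bacterial lipopolysaccharide to TLR4, the DNA sensor Cgas, the RNA sensor Ddx58 (RIG-I) and the kinase Irak2. The median difference over the tested members was -0.10 on the log2 scale, against 0.01 over all genes tested, and the median size of the difference was 0.33 against 0.46. These are descriptions of the list, which was not tested as a whole.

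Not every member could be judged. Tlr1, Tlr3 and Tlr7 did not pass the filter on dim signals and were not tested, and Nod2, Ticam2, Irak4, Chuk and Nfkb1 lacked an own probe set in the annotation used and were not analysed here. Another 4 members were tested through a single line, Tlr5 through L929 and Ddx58, Irak3 and Ikbke through NIH3T3. Without the filter on dim probe sets the same 6 of 37 members were called, or 16.2%, against 22.9% of all genes. The arrays of the lines did not overlap for 25 of the 34 members, or 73.5%, against 73.8% of all genes tested. Both L929 arrays lay above both NIH3T3 arrays for 10 members and below them for 15, against 37.6% and 36.2% of all genes.

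**Figure D1:**
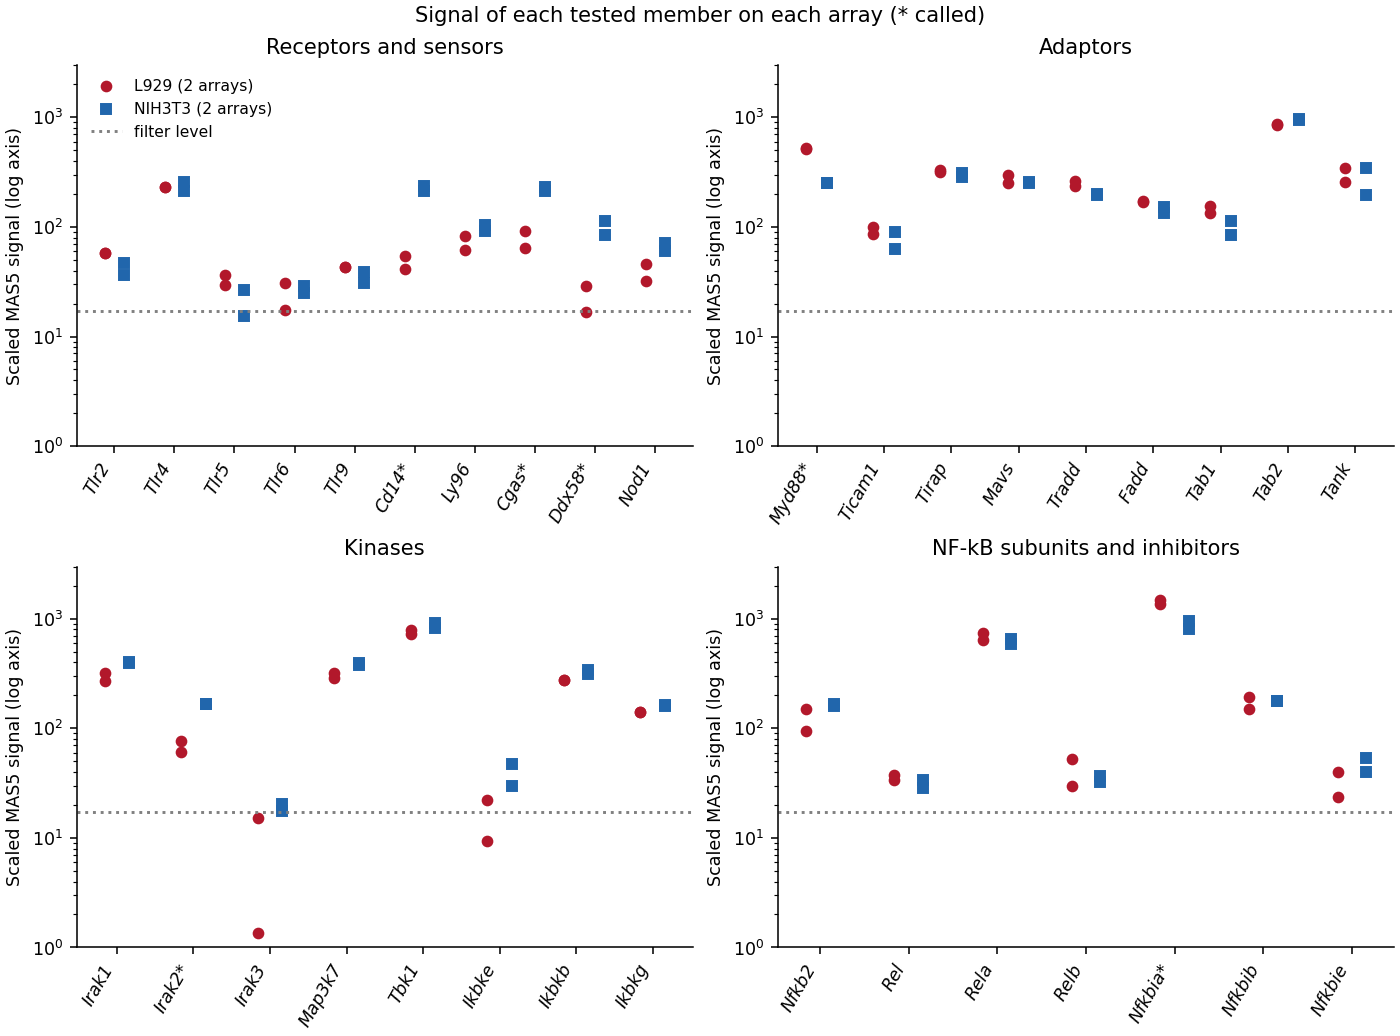
Scaled MAS5 signal (log axis) of the 34 tested members, 1 panel per role, with L929 arrays as circles and NIH3T3 arrays as squares (2 each) and the filter level as a dotted line. Cd14, Cgas, Ddx58 and Irak2 lie lower on both L929 arrays and Myd88 and Nfkbia higher; signals are compared within a gene only.

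The stretches of genome upstream of the transcription starts are shown for 5 of the 6 called members, all but Cd14, because these genes carry differences reported below, together with that of Rel, which was not called. They come from RefSeq on build GRCm38.p6 and cover the 250 bases before the start, 5′ to 3′ on the gene's strand, with matches to a motif in capitals. Upstream sequences were matched for 32 of the 42 members. The motifs searched on both strands were the kappa B consensus, which NF-kB dimers bind, and the core of the interferon-stimulated response element, which is GAAA, any 2 bases and GAAA again. The motifs' matches did not overlap each other, and overlapping matches of the same motif are shown as a single run.
Nfkbia, chr12:55492648-55492897, minus strand: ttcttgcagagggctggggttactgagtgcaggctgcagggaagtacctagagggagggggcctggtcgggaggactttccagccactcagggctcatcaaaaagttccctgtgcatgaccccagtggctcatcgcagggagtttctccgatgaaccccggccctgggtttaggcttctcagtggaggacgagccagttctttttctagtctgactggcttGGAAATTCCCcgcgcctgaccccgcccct
Myd88, chr9:119340019-119340268, minus strand: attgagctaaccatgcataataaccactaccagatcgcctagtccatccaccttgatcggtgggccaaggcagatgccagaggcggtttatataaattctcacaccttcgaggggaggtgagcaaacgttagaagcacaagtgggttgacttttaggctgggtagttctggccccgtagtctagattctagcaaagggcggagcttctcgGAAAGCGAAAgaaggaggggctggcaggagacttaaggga
Cgas, chr9:78443238-78443487, minus strand: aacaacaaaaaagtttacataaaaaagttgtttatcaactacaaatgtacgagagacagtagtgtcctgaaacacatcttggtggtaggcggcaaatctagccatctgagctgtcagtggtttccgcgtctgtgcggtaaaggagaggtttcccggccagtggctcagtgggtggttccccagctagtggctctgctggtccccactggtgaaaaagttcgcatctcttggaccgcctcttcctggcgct
Ddx58, chr4:40239826-40240075, minus strand: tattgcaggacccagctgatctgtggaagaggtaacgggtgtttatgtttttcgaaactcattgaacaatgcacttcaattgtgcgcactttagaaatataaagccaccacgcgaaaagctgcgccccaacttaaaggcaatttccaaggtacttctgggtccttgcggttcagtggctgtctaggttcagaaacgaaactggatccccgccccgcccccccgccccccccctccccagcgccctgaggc
Irak2, chr6:113638217-113638466, plus strand: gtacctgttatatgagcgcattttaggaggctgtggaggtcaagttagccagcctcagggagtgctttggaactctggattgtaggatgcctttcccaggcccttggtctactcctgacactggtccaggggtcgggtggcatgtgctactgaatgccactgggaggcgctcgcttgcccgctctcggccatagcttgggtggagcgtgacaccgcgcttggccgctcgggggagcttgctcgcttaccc
Rel, chr11:23770970-23771219, minus strand: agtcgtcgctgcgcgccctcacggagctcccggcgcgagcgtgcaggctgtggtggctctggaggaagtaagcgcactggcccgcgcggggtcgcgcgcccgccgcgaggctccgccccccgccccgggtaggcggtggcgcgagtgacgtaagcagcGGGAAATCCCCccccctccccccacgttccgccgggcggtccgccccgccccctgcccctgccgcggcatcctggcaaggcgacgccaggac
The Nfkbia stretch held 1 kappa B match, ending 19 bases before the start, and that of Rel held 2 overlapping matches. The Myd88 stretch held the interferon-stimulated core once, ending 30 bases before the start, and those of Cgas, Ddx58 and Irak2 held neither motif. Among the members with a sequence, 9 of 32 (28.1%) had a kappa B match in at least 1 upstream stretch, against 8.23% of all 27025 genes with a sequence, and 2 of 32 (6.25%) had the interferon-stimulated core, against 3.46%. Of the 9 members with a kappa B match, which were Irak1, Map3k7, Nfkb2, Nfkbia, Nfkbie, Rel, Tank, Tlr2 and Tlr3, only Nfkbia was called. A match says only that the letters are present.

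Among the receptors and sensors, 3 of 10 tested members were lower in L929 and 0 were higher (limma; at an unadjusted p under 0.05, 4 were lower and 0 higher). The 3 lower ones were Cd14, Cgas and Ddx58, each of them lower in all 16 alternative settings tried, which reuse the same arrays. Ddx58 passed the filter only through NIH3T3, where it was high, so its direction followed from the filter. That leaves Cd14 and Cgas as the lower receptors and sensors tested through both lines. In a mixed sample fewer expressing cells and less RNA per cell cannot be told apart, and this holds for every value here.

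Cd14 had the largest difference of the tested members. It measured 54.2 and 41.3 in L929, against 238 and 215 in NIH3T3. Both L929 arrays lay far below both NIH3T3 arrays, and the fold was 4.23 lower in L929 (log2 difference -2.08 ± 0.19, SE; limma adjusted p = 5.66e-05). Cd14 is also a marker of monocytes and macrophages. The 10 macrophage and blood cell markers, which include lymphocyte genes, had summed signals of 235 and 246 in L929 and 240 and 271 in NIH3T3. Such a sum is compared between arrays only, and its brightest probe sets weigh most. Of these 10 markers, 3 exceeded the filter level on all 4 arrays and 3 lay under it on all 4. The highest signals of the pan-leukocyte marker Ptprc were 11.8 in L929 and 13.9 in NIH3T3, under the filter level. So were those of the myeloid integrin Itgam, at 1.98 in L929 and 1.61 in NIH3T3. The macrophage lysosomal marker Cd68 was lower in L929, at 32.6 and 30.6 against 66.6 and 64.1 in NIH3T3 (limma adjusted p = 0.0153). The lysozyme gene Lyz2 was higher, at 36.9 and 43.5 in L929 against 17.3 and 6.25 in NIH3T3 (limma adjusted p = 0.0141). Lyz2 passed the filter only through L929, where it was high, so its direction followed from the filter.

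The partners of CD14 at the cell surface were not called. Tlr4, the lipopolysaccharide receptor, measured 234 and 233 in L929, against 259 and 211 in NIH3T3. The L929 values lay between the NIH3T3 values, the difference had a 95% interval from -0.31 to 0.30 on the log2 scale, and the 2 other tested Tlr4 probe sets differed by 0.07 and 0.09. Ly96, which encodes the lipopolysaccharide-binding TLR4 partner MD-2, measured 61.8 and 82.5 in L929, against 91.1 and 105 in NIH3T3. Its arrays did not overlap, but the difference of -0.41 on the log2 scale missed the threshold (limma adjusted p = 0.152).

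The cytosolic nucleic acid sensors Cgas and Ddx58 were lower in L929. Cgas, which makes the second messenger cGAMP when it binds DNA, measured 65.0 and 91.9 in L929, against 214 and 231 in NIH3T3. Both L929 arrays were well below the NIH3T3 arrays, a 2.69-fold lower signal (log2 difference -1.43 ± 0.19, SE; limma adjusted p = 0.000437). A second Cgas probe set measured 25.3 and 11.6 in L929, against 99.5 and 66.2 in NIH3T3, with a log2 difference of -1.80 (adjusted p = 0.00327 over all probe sets tested). That probe set passed the filter only through NIH3T3, where it was high, so its direction followed from the filter. Ddx58, the helicase that binds viral RNA ends, measured 28.9 and 16.6 in L929, against 113 and 84.5 in NIH3T3. It was 3.51-fold lower, with 1 of the 2 L929 arrays under the filter level (log2 difference -1.81 ± 0.29, SE; adjusted p = 0.00122). The 2 other Ddx58 probe sets did not reach 18 on any array and were not tested.

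Their adaptors were measured in the same cells. Mavs, the mitochondrial adaptor of RIG-I, measured 252 and 300.4 in L929, against 253 and 259 in NIH3T3, with a 95% interval of the log2 difference from -0.18 to 0.39. Sting1, the membrane protein that cGAMP activates, measured 80.4 and 123 in L929, against 95.6 and 86.4 in NIH3T3, and was not called (log2 difference 0.12, limma adjusted p = 0.693). The probe sets used for both adaptors overlapped between the lines, but their second probe sets did not. That of Mavs measured 194 and 141 in L929, against 199 and 239 in NIH3T3, and was not called (log2 difference -0.38, adjusted p = 0.128 over probe sets). That of Sting1 measured 51.2 and 36.8 in L929, against 23.5 and 16.9 in NIH3T3, and was called higher (adjusted p = 0.0445 over probe sets). It passed the filter only through L929, where it was high, so its direction followed from the filter.

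The remaining sensors were dim and were not called. Tlr2, a receptor of bacterial lipoproteins, measured 58.0 and 57.7 in L929, against 36.4 and 46.8 in NIH3T3 (limma adjusted p = 0.198). Tlr5, the flagellin receptor, measured 36.1 and 29.6 in L929, against 15.3 and 26.4 in NIH3T3. Both genes lay higher on both L929 arrays, yet their log2 differences of 0.42 and 0.52 came with 95% intervals of -0.15 to 0.98 and -0.19 to 1.24. Tlr6, the partner of TLR2, and Tlr9, the receptor of unmethylated DNA, differed by -0.15 and 0.26. Nod1 measured 46.1 and 32.3 in L929, against 60.6 and 71.0 in NIH3T3, lower on both L929 arrays but short of the threshold (log2 difference -0.66, adjusted p = 0.0681). Nod1 was called lower when the filter level was raised to the 60th percentile (adjusted p = 0.0479) and in the fit that averaged the probe sets of each gene (adjusted p = 0.0409). Nod1 has 1 probe set, so its own difference was the same in both and only the variance and the adjustment over the other genes moved. Of the untested receptors, the lipoprotein receptor Tlr1 measured 3.17 and 4.89 in L929 and 4.48 and 8.99 in NIH3T3, and no probe set of Tlr3 or Tlr7, which sense RNA in endosomes, exceeded the filter level on both arrays of a line.

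Among the adaptors, 1 of 9 tested members was higher in L929 and 0 were lower (limma; at an unadjusted p under 0.05, 3 were higher and 0 lower). Myd88 measured 509.8 and 525 in L929, against 253 and 250.1 in NIH3T3. The replicates of each line nearly coincided, and the signal was 2.02-fold higher in L929 (log2 difference 1.02 ± 0.10, SE; adjusted p = 7.82e-05). Myd88 was called in 15 of 16 alternatives; without scaling the log2 difference was 0.74 and the adjusted p 0.272. In that setting the differences of all genes had a median of -0.26, so the difference of Myd88 from that median changed little.

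The other TLR adaptors differed less. Ticam1, which encodes TRIF, the adaptor of TLR3 and of internalised TLR4, measured 85.9 and 99.5 in L929, against 62.7 and 89.1 in NIH3T3, with overlapping arrays. Tirap, which bridges MyD88 to TLR2 and TLR4, measured 317 and 329 in L929, against 314 and 288 in NIH3T3, with a 95% interval of the log2 difference from -0.15 to 0.35. Tab1 and Tab2 encode the partners of the kinase TAK1. Tab1 measured 134 and 155 in L929, against 85.0 and 113 in NIH3T3, higher on both L929 arrays but not called (log2 difference 0.52, limma adjusted p = 0.0538). It was called higher with quantile normalization (adjusted p = 0.0207) and without NIH3T3 replicate 2 (adjusted p = 0.0254). Tab2 measured 844 and 864 in L929, against 959 and 951 in NIH3T3, a log2 difference of -0.16 with an interval from -0.37 to 0.05.

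The death-domain adaptors of the TNF receptor family and Tank, a scaffold of TBK1 and IKK-epsilon, were not called either. Tradd measured 260.4 and 238 in L929, against 199 and 196 in NIH3T3 (log2 difference 0.32, limma adjusted p = 0.0587). Fadd measured 170.2 and 174 in L929, against 134 and 151 in NIH3T3 (log2 difference 0.26, adjusted p = 0.18). Both lay higher on both L929 arrays, but another tested probe set of each gene differed by -0.24 and -0.28. Tank measured 349 and 257 in L929, against 197 and 347 in NIH3T3, so that the arrays of the lines overlapped. Without NIH3T3 replicate 2 the log2 difference of Tank was 0.59. The other tested Tank probe set went the other way and was not called. It measured 22.0 and 20.9 in L929, against 31.8 and 44.8 in NIH3T3 (log2 difference -0.64). In all, 8 of 9 adaptors had a positive difference, but 4 of 9 did without scaling and 5 of 9 with the mean of all probe sets per gene.

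**Figure D2:**
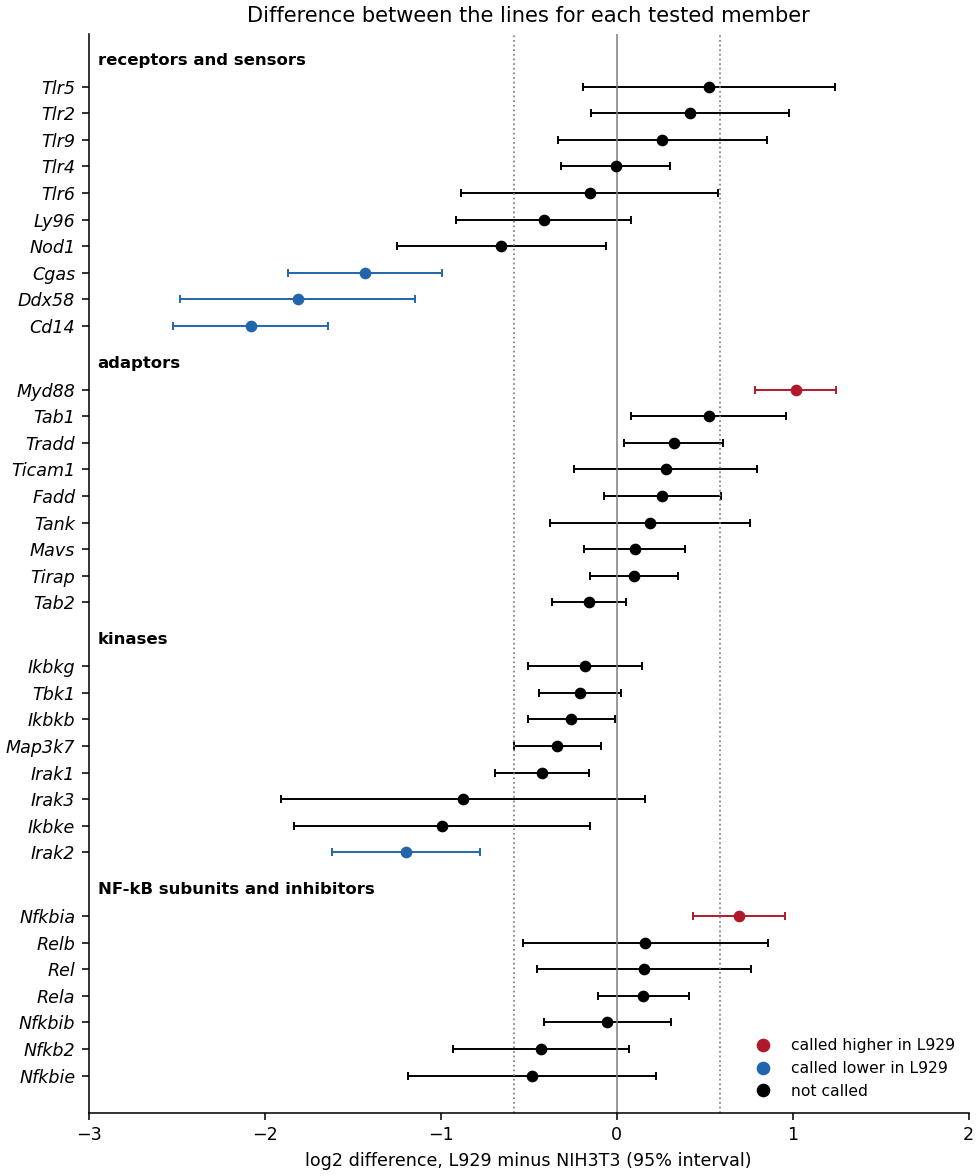
Log2 difference, L929 minus NIH3T3, of each tested member with its 95% interval from limma, grouped by role; dotted lines mark a 1.5-fold difference. The 8 kinases all lie below 0, from -0.18 for Ikbkg to -1.20 for Irak2. Among them Irak3 and Ikbke passed the filter only through NIH3T3, where they were high.

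On the probe set used for each gene, the 8 tested kinase members, IKK-gamma included, had lower signals on both L929 arrays than on both NIH3T3 arrays. Among all genes tested this held for 36.2%. Other tested probe sets of Irak1, Map3k7, Ikbkb and Ikbkg overlapped between the lines. Of these, 1 of Map3k7 and 1 of Ikbkg had positive log2 differences, 0.23 and 0.03. Irak3 and Ikbke passed the filter only through NIH3T3, where they were high, so their direction was fixed by the filter, which leaves 6 kinases tested through both lines. Only Irak2 was called (limma; 1 lower and 0 higher, and at an unadjusted p under 0.05, 5 lower and 0 higher). The median difference was -0.38 on the log2 scale. The differences of all kinases tested, Irak3 and Ikbke among them, were negative in all 16 alternatives, which reuse the same arrays.

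Irak2, a kinase that sustains signalling downstream of MyD88, measured 60.8 and 76.4 in L929, against 166 and 167 in NIH3T3. The lines were well apart, with a 2.29-fold lower signal in L929 (log2 difference -1.20 ± 0.18, SE; limma adjusted p = 0.000944). Irak1, which acts beside IRAK2 in the same complex, measured 271 and 322 in L929, against 404 and 395 in NIH3T3. Its log2 difference of -0.43 had an adjusted p of 0.0171 but stood under the fold threshold, and its 4 tested probe sets ranged from -0.74 to -0.43. Irak3, the inhibitory member of the family, measured 15.2 and 1.36 in L929, against 17.7 and 20.3 in NIH3T3, near the filter level in NIH3T3 and below it in L929. It was not called, except without L929 replicate 1 (log2 difference -1.53, adjusted p = 0.0187).

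Further down the pathway, Map3k7, which encodes TAK1, measured 319.8 and 288 in L929, against 379 and 392 in NIH3T3. Its log2 difference of -0.34 passed the p threshold (limma adjusted p = 0.0315) and not the fold. The 5 tested Map3k7 probe sets ranged from -0.93 to 0.23, and 1 of them, with 177 and 201 in L929 against 347 and 289.8 in NIH3T3, was called lower. Tbk1, which phosphorylates interferon regulatory factors, measured 783 and 726 in L929, against 829 and 921 in NIH3T3 (log2 difference -0.21, interval -0.44 to 0.02). Its relative Ikbke measured 9.39 and 22.1 in L929, against 29.6 and 47.3 in NIH3T3, lower on both L929 arrays and just short of the threshold (log2 difference -0.99, adjusted p = 0.0549). Ikbke was called lower in 5 of 15 alternatives that tested it, with an adjusted p from 0.0224 to 0.273, and 1 of them left out L929 replicate 2.

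The IKK complex showed small differences. Ikbkb, the catalytic subunit of the canonical route, measured 274 and 274 in L929, against 316 and 342 in NIH3T3, and its log2 difference of -0.26 had a 95% interval from -0.51 to -0.01. Ikbkg, the regulatory subunit NEMO, measured 141 and 142 in L929, against 160.4 and 163 in NIH3T3, with an interval from -0.51 to 0.14. Both intervals lay within a 1.5-fold difference, while those of other tested probe sets of both genes reached past it.

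Of the NF-kB subunits with a value of their own, 0 of 4 were called (limma; at an unadjusted p under 0.05 also 0). Rela, the p65 subunit that carries most canonical transcriptional activity, measured 636 and 746 in L929, against 588 and 652 in NIH3T3. Its arrays overlapped, and the log2 difference of 0.15 had a 95% interval from -0.11 to 0.41. Rel, the c-Rel subunit best known from lymphocytes, measured 34.1 and 37.3 in L929, against 33.9 and 28.8 in NIH3T3, and Relb, the subunit of the noncanonical route, 29.9 and 52.3 in L929, against 37.1 and 32.5 in NIH3T3. Both were dim, with intervals from -0.45 to 0.76 and from -0.54 to 0.86 that reach past a 1.5-fold difference.

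Nfkb2, which encodes the p100 precursor of p52, could not be given a direction. The probe set used for it measured 151 and 93.8 in L929, against 159 and 167 in NIH3T3 (log2 difference -0.43, limma adjusted p = 0.141). The other tested probe set measured 153 and 183 in L929, against 145 and 89.0 in NIH3T3 (log2 difference 0.53, adjusted p = 0.0984 over probe sets). Nfkb2 was called lower without L929 replicate 1 (log2 difference -0.75, adjusted p = 0.0135) and higher without NIH3T3 replicate 1 (0.86, adjusted p = 0.0157), where the other probe set became the brighter one and was used.

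Of the inhibitors, 1 of 3 was called, and over subunits and inhibitors together 1 of 7 was higher and 0 were lower (at an unadjusted p under 0.05, 1 higher and 0 lower). Nfkbia measured 1374 and 1488 in L929, against 810.3 and 958 in NIH3T3. Both L929 arrays exceeded both NIH3T3 arrays, a 1.62-fold higher signal (log2 difference 0.69 ± 0.11, SE; limma adjusted p = 0.0014). All 5 Nfkbia probe sets had positive differences, from 0.29 to 0.89, and 4 of them were called higher. The most separated of them measured 416 and 464 in L929, against 235 and 231 in NIH3T3. Nfkbia lost its call without scaling (log2 difference 0.41, adjusted p = 0.494) and without NIH3T3 replicate 1, where the log2 difference of 0.57 fell under the fold threshold (adjusted p = 0.00386). Nfkbib, encoding IkB-beta, measured 193 and 150.0 in L929, against 176 and 178 in NIH3T3, with an interval from -0.42 to 0.31. Nfkbie, encoding IkB-epsilon, measured 23.6 and 40.3 in L929, against 39.9 and 53.9 in NIH3T3 (log2 difference -0.48), while its other tested probe set differed by 0.63.

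**Figure D3:**
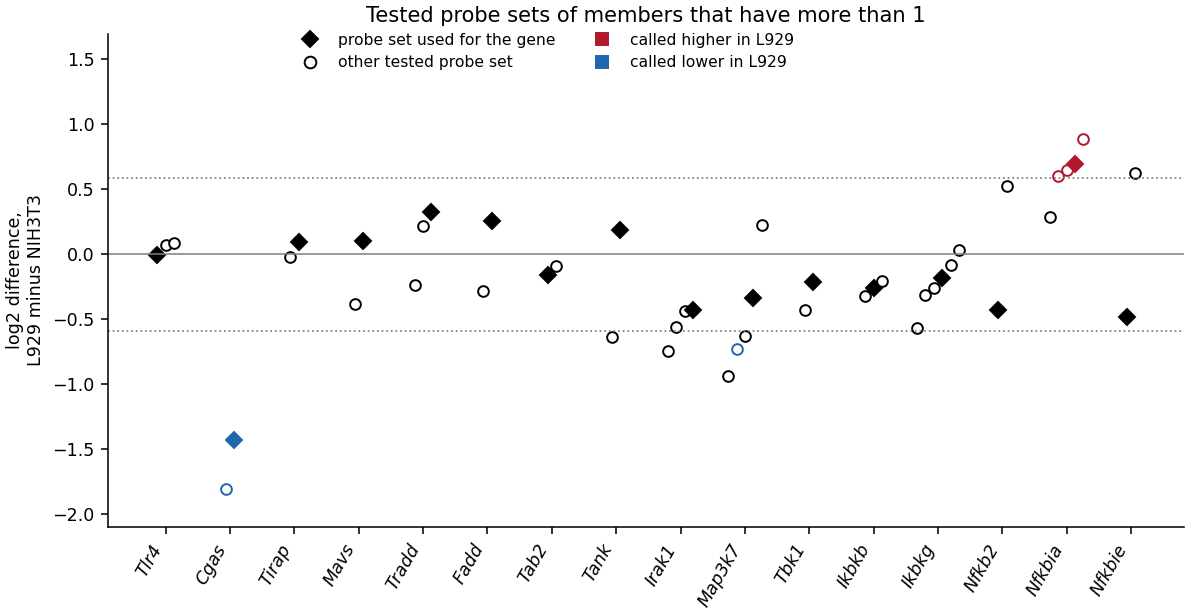
Log2 difference, L929 minus NIH3T3, of every tested probe set of the 16 members with more than 1; diamonds mark the probe set used for the gene, and dotted lines a 1.5-fold difference. Both Cgas probe sets and 4 of 5 Nfkbia probe sets were called, and 10 members have probe sets on both sides of 0. The Cgas probe set not used for the gene passed the filter only through NIH3T3, where it was high.

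Probe sets of the same member thus differed in sign for 10 of the 16 members with several tested probe sets, and for 0 of them were probe sets called in opposite directions. Over all probe sets of the members, 65 of 80 were tested, of which 5 were called higher and 6 lower. Of all 27438 probe sets tested 31.6% were called, 14.9% higher and 16.7% lower. On the probe set used for the gene, the 95% interval of 10 members lay within a 1.5-fold difference either way. These were Tlr4, Tirap, Mavs, Tab2, Map3k7, Tbk1, Ikbkb, Ikbkg, Rela and Nfkbib. Other tested probe sets of Tlr4, Mavs, Map3k7, Tbk1, Ikbkb and Ikbkg had intervals that reached past that fold, and 1 of Map3k7 was called lower. The intervals of the 18 other members that were not called reached past that fold.

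Among other genes of the pathway, 37 of a list of 50 were tested, of which 14 were higher and 4 lower in L929, with a median log2 difference of 0.37. Of all genes tested 17.3% were higher and 17.6% lower, and the share in this list was not tested against them. Of the called genes, Nlrc5, Unc93b1, Irf7 and Bcl3 entered the test only through the line where they were high. The inhibitors and feedback regulators held 10 of these calls, 7 higher and 3 lower of 13 tested. The largest increase was in Nlrc5, a regulator of MHC class I genes and of NF-kB signalling, with 67.0 and 89.1 in L929, against 11.7 and 4.87 in NIH3T3. Its signal was thus higher by at least 4.48-fold (limma adjusted p = 0.000429). Nfkbid and Nfkbiz encode nuclear IkB proteins that bind NF-kB at its target genes. Nfkbid measured 66.8 and 117 in L929, against 19.6 and 19.3 in NIH3T3 (3.52-fold higher, adjusted p = 0.00151), and Nfkbiz 519.9 and 497 in L929, against 112 and 186 in NIH3T3 (3.38-fold higher, adjusted p = 0.00021). A further nuclear IkB protein, Bcl3, went the other way, with 10.2 and 1.77 in L929, against 45.2 and 52.2 in NIH3T3. It was lower by at least 2.82-fold (adjusted p = 0.00201).

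The remaining called genes of that list included sensors and ubiquitin ligases. Aim2, a cytosolic DNA sensor that forms an inflammasome, measured 92.7 and 69.8 in L929, against 19.0 and 21.1 in NIH3T3, higher where Cgas was lower (3.16-fold, limma adjusted p = 0.00113). Unc93b1, the chaperone that brings TLR3, TLR7 and TLR9 to endosomes, measured 65.2 and 83.2 in L929, against 8.76 and 33.2 in NIH3T3, where 1 of 2 arrays exceeded the filter level (adjusted p = 0.012). Peli1 and Peli2, ubiquitin ligases that act on IRAK proteins, were lower too. Peli1 measured 100.1 and 88.0 in L929, against 194 and 186 in NIH3T3 (1.94-fold lower, adjusted p = 0.00135), and Peli2 47.8 and 45.7 in L929, against 144 and 127 in NIH3T3 (2.62-fold lower, adjusted p = 0.000633). Ikbip, named for its interaction with an IKK subunit, was 2.90-fold lower (adjusted p = 0.000267). Without scaling, the higher count of this list was 6.

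Genes commonly induced through NF-kB changed in both directions. Of 16 tested genes of a list of 29, 5 were higher and 5 lower in L929, with a median log2 difference of -0.08. Of all genes tested 17.3% were higher and 17.6% lower. Cxcl5, Birc3 and Il6 entered the test only through the line where they were high. The higher ones were Csf1, Cxcl1, Il6, Ccl7 and Ccl2, which encode a macrophage growth factor, chemokines and interleukin-6. Csf1 measured 3926 and 3882 in L929, against 953 and 1029 in NIH3T3 (3.92-fold higher, limma adjusted p = 3.43e-06), and Cxcl1 1504 and 1828 in L929, against 317 and 575 in NIH3T3 (3.83-fold higher, adjusted p = 0.000287). Both were well apart between the lines, as were the monocyte chemokines Ccl2 and Ccl7. Ccl2 measured 1759 and 1795 in L929, against 859 and 746 in NIH3T3 (2.21-fold higher, limma adjusted p = 6.15e-05), and Ccl7 measured 517 and 448 in L929, against 152 and 186 in NIH3T3 (2.78-fold higher, adjusted p = 5.64e-05). Il6 was dimmer, at 48.0 and 73.3 in L929, against 4.96 and 27.2 in NIH3T3 (adjusted p = 0.0185). The call of Il6 was lost without a filter, without a variance trend, without L929 replicate 2 and without NIH3T3 replicate 1.

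The lower ones were Cxcl5, Ptgs2, Birc3, Lif and Vcam1. Cxcl5, a neutrophil chemokine, measured 0.654 and 0.894 in L929, against 618 and 802 in NIH3T3, lower by at least 40.8-fold (limma adjusted p = 3.28e-07). Ptgs2, the inducible cyclooxygenase, measured 128 and 111 in L929, against 3999 and 3394 in NIH3T3 (adjusted p = 4.95e-08). These were the widest separations of the list. Birc3, an inhibitor of apoptosis that ubiquitinates RIP kinases, measured 2.85 and 17.2 in L929, against 88.2 and 142 in NIH3T3, lower by at least 6.48-fold (adjusted p = 0.000792). Vcam1, an adhesion molecule for leukocytes, measured 226 and 204 in L929, against 418 and 489 in NIH3T3 (2.06-fold lower, limma adjusted p = 0.000215). Lif, a cytokine of the interleukin-6 family, measured 45.9 and 27.9 in L929, against 89.7 and 106 in NIH3T3 (2.40-fold lower, adjusted p = 0.00513). Thus chemokines of the same pathway stood on both sides, with Ccl2, Ccl7 and Cxcl1 higher and Cxcl5 lower. The commonly cited targets Icam1, Ccl5, Cxcl10, Nos2 and Tnf did not pass the filter and were not tested.

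**Figure D4:**
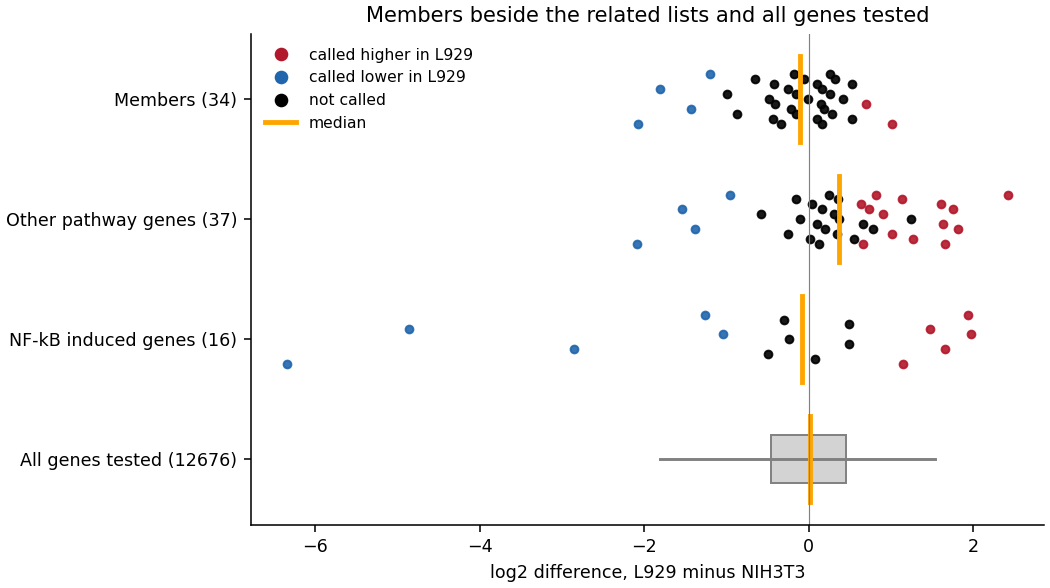
Log2 difference, L929 minus NIH3T3, of the tested members, of the other pathway genes and of the NF-kB induced genes (1 point per gene, number tested in brackets), above all genes tested (box, middle 50%; line, 5th to 95th percentile); orange bars mark medians. The members lie between -2.08 and 1.02, and the induced genes between -6.34 and 1.97.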

How the data were processed

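RNA of 2 L929 and 2 NIH3T3 samples was hybridised to Affymetrix Mouse Genome 430 2.0 arrays, per the labels and the series' design text. The authors deposited 1 intensity per probe set and array, MAS5 signals per the submitters' processing notes; the MAS5 version and scaling target are not given here. Of 45037 probe sets that are not controls, 34945 carry 1 gene symbol in the platform annotation, 932 several and 9160 none, and only the first kind was named.

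Arrays were scaled to a common trimmed mean (2% left out at each end). L929 arrays were multiplied by 1.07 and 1.14, NIH3T3 arrays by 1.13 and 0.726. An offset of 8.01, the 25th percentile, was added before log2, so folds of dim genes are understated. Lines were compared with lmFit and eBayes of limma 3.58.1 (R 4.3.3) with a mean-variance trend on all 4 arrays, with Benjamini-Hochberg adjustment over all genes or probe sets tested. A gene took its brightest tested probe set. Where a line lay under the filter level on both arrays, the fold is a bound against 17.3, written "at least". That level is a percentile, not a detection limit.

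In simulated data for this comparison over 26308 probe sets, 42% of probe sets changed 1.5-fold and 92% of those changed 2-fold were recovered, and 25 of 26108 unchanged ones were called. The changed probe sets, 50 per fold, were drawn only from those with a mean signal above the median. Each probe set was given a spread smoothed over mean signal. Only 50 probe sets per fold were changed, whereas 31.6% of all probe sets tested were called in the real data. The adjustment of p depends on how many probe sets change. The simulated shares therefore do not cover data with so many changes, dim members or probe sets with an unusual spread.

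Every member that has an own probe set is named, and up to 5 called genes per direction of the other lists; Sting1, Irf7, Tnf and other genes of these lists were added after their values were seen. The members and lists were chosen with earlier results of these data known. The 16 alternatives cover scaling, offset, filter, variance trend, probe set choice, replicate block and leaving out each array. Upstream sequences were read from a RefSeq table of build GRCm38.p6; the array files name no build. No list was tested as a whole.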

Additional observations from a re-analysis of the deposited data

How the results depend on the processing

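Cd14, Cgas, Ddx58 and Irak2 were called lower in all 16 alternatives, with Cd14 between -2.34 and -1.70 on the log2 scale. The alternatives reuse the same arrays, and Ddx58 passed the main filter only through NIH3T3, where it was high. The count of members called higher was 2, but 0 without scaling, and 2 to 4 when single arrays were left out, with the highest count, 4, without NIH3T3 replicate 2. The count called lower was 4 to 6 over all alternatives. Among other pathway genes the higher count of 14 was 6 without scaling. In that setting 20.2% of all genes were called and 31.3% of the calls were higher in L929, against 34.8% and 49.5%, and the median difference of all genes was -0.26. Nfkb2 turned from -0.43 to 0.86 without NIH3T3 replicate 1, because another probe set was then the brightest. Nfkb2 gained a call at -0.75 without L929 replicate 1. Of the single-member values under alternatives, 516 kept their side of the thresholds, 12 gained and 3 lost a call and 1 reversed. Same-numbered replicates did not deviate together (r = 0.01), but whether they were prepared together is not stated. With the replicate block 2 members were higher and 5 lower, with Ikbke added (limma adjusted p = 0.0323). The 3 members under the filter level were not tested; that level does not show whether they were detected.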
